A study of Homo sapiens with 24 samples.

Results

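The genotype-dependent response to mesoderm induction between 6 and 48 h was measured as an interaction, the change from 6 to 48 h in knockout libraries minus the same change in wild-type libraries. It used 12 of the 24 mRNA libraries of a short induction time course. The cells were HUES6, an established line of human embryonic stem cells. The 4 groups were wild type (WT) at 6 h, WT at 48 h, RBPMS knockout (KO) at 6 h and RBPMS knockout at 48 h, with 3 libraries each. All 12 came from cells grown in FTDA medium and induced with BMP4 at 1.5 ng/ml and CHIR at 1.5 µM, CHIR being an inhibitor of the kinase GSK3 that switches on WNT signalling. The uninduced cells of 0 h and the cells of 3 h were not part of the contrast, and their levels are given only for comparison. The series names the knockout cells as derivatives, in the plural. The labels do not say which derivative, clone or culture a library came from, nor whether the KO libraries of all hours came from the same one. The p-values below therefore measure only the spread between these libraries, which may be technical.

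RBPMS encodes an RNA-binding protein of the RRM type. In the early embryo, BMP, WNT and NODAL signals turn pluripotent epiblast cells into primitive streak, marked by the T-box factors TBXT and EOMES, and then into mesoderm or definitive endoderm. Streak cells that keep high WNT signalling give rise to presomitic and paraxial mesoderm, while high NODAL signalling favours endoderm, and the pluripotency factors NANOG, SOX2 and POU5F1 are turned down at different rates on the way. Levels of mRNA in a culture cannot tell apart fewer cells of a type and less RNA per cell.

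Reads behind the gene table numbered 29896358 to 50451908 per library, so that a gene with 0 reads could still be at up to 0.0595 to 0.1003 CPM (3 reads; CPM, the deposited unit, scales reads to the library's total and not to gene length). This limit covers counting error only. WT 48 h replicate 3 stood apart from its group. It correlated with the other WT 48 h libraries at r from 0.9899 to 0.9902, against 0.997 between those libraries (log2 CPM, across genes, which are not independent replicates). Counting differences per gene between it and its group were 67.5 to 71.7 (chi-square), against 3.3 to 12.7 in all other replicate pairs. Results are therefore given with all 12 libraries and, where they differ, without it. The targeted gene did not check the labels: RBPMS stood at 109, 108 and 101 CPM in WT and at 101, 96.8 and 102 CPM in KO at 6 h. Its 48 h levels were 104, 95.5 and 95.4 CPM in WT, against 87.7, 80.6 and 92.5 CPM in KO. Its interaction was -0.06 ± 0.079 (log2, SE; limma, adjusted p = 0.675), and a knockout can leave the mRNA level as it is.

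The change from 6 to 48 h differed between the genotypes for 3105 of the 18948 genes tested (limma on log2 of CPM + 0.25, Benjamini-Hochberg adjusted p under 0.05). It was higher in KO for 1874 genes (9.89%) and lower in KO for 1231 genes (6.5%). The counts of called genes in each gene list below are to be read beside these shares. Some genes belong to several lists, so the lists are not independent of each other. An unadjusted p under 0.05 was reached by 5415 genes. The median interaction of all genes was -0.01 and the median size among called genes was 0.75, both on the log2 scale. A size of at least 1, a doubling, was reached by 949 called genes, 643 of them higher and 306 lower. Without WT 48 h replicate 3 the calls numbered 2811 higher (14.6%) and 2470 lower (12.9%). Of the calls made with all 12 libraries, 3066 (98.7%) were also made without it, and these were 58.1% of that larger set. In 2164 genes the call held, in the same direction, whichever of the 12 libraries was left out.

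**Figure D1:**
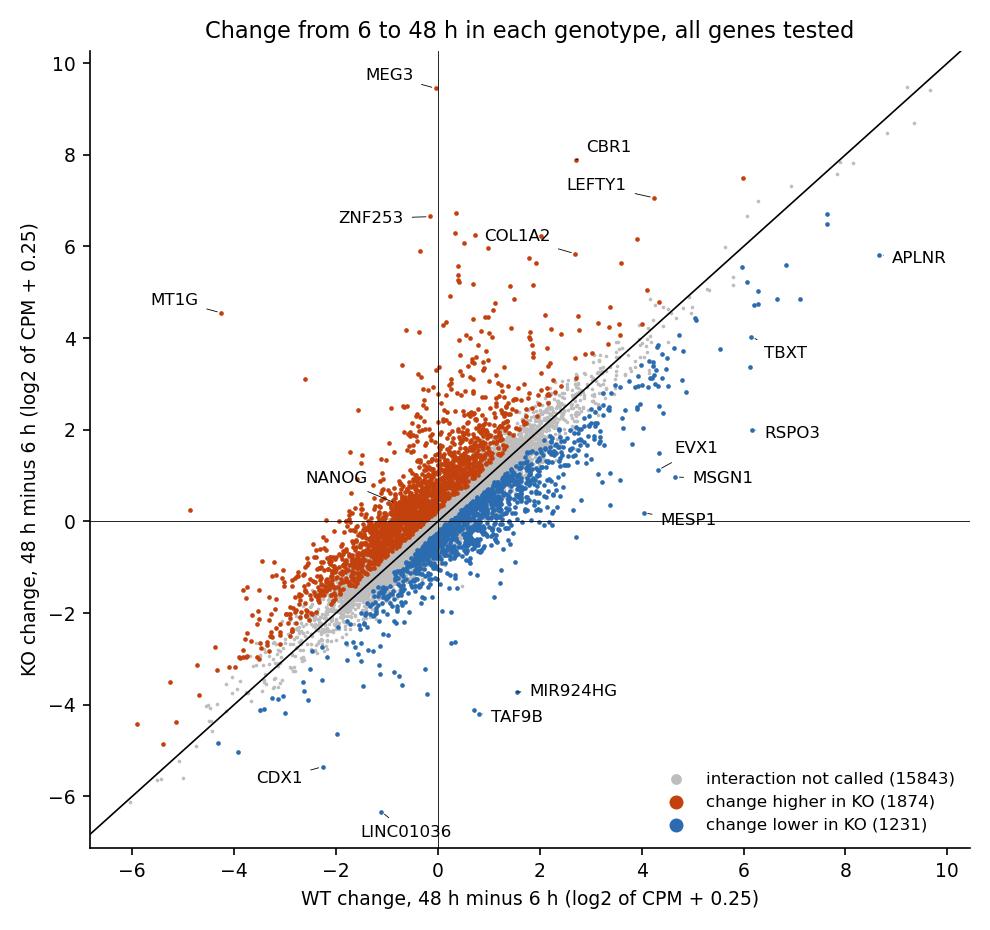
Change from 6 to 48 h in WT (horizontal axis) and KO (vertical axis), each a difference of log2(CPM + 0.25), for the 18948 genes tested; the diagonal marks equal changes. Genes with a higher change in KO (1874) lie above it, among them MEG3 and MT1G, and genes with a lower change (1231) lie below it, among them TBXT, APLNR and RSPO3.

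Most called genes differed between the genotypes at the later hour. KO and WT differed (adjusted p under 0.05 in the same fit) at 48 h for 23.2% of all genes and at 6 h for 6.35%. Of the 3105 called genes, 2000 (64.4%) differed at 48 h only, 378 (12.2%) at 6 h only, 425 (13.7%) at both hours and 302 (9.73%) at neither. The 3 smaller classes moved with single libraries. The 6 h class fell to 246 without KO 6 h replicate 2, to 236 without KO 6 h replicate 3 and to 234 without WT 6 h replicate 2. Without WT 48 h replicate 3 the classes held 2703, 980, 1026 and 572 genes in the order above. Opposite directions were seen in 98 genes that rose in WT and fell in KO, and in 211 that fell in WT and rose in KO. MT1G, a zinc-binding metallothionein, and LNCPRESS1, a long noncoding RNA of pluripotent cells, were among the latter, and TAF9B, a subunit of general transcription complexes, was among the former.

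Genes of the primitive streak were turned on in both genotypes, and several of them less in KO. Of 17 streak genes tested, 17 rose from 6 to 48 h in WT and 15 in KO. The interaction was lower in KO for 8 (TBXT, EOMES, MESP1, MESP2, EVX1, WNT3, WNT3A and SP5) and higher for 1 (FOXA2), with a list median of -0.34. The summed level of the list at 48 h was 4770.4 to 5178.3 CPM in WT and 4222.1 to 4776.8 CPM in KO, so the groups overlapped slightly in the sum. TBXT (brachyury, ENSG00000164458.5, chr6:166157656-166168700, minus strand) is the T-box factor that defines streak and nascent mesoderm. It stood at 3.08, 2.81 and 2.67 CPM in WT and at 3.09, 2.89 and 2.84 CPM in KO at 6 h, where the groups overlapped. By 48 h it had risen to 228, 270 and 239 CPM in WT, and to 58.9, 52.5 and 59.6 CPM in KO. Every KO library was thus below every WT library at 48 h, the WT mean being 4.31 times the KO mean, and the interaction was -2.11 ± 0.11 (limma, adjusted p = 1.45e-08). The deposited transcript counts, summed per gene, hold only 22.08 to 26.36% as many reads, and on them TBXT kept its direction (-2.57) but was not called by edgeR (adjusted p = 0.626). EVX1, a homeobox factor of the posterior streak, reached 34.3, 45 and 48.3 CPM in WT at 48 h against 4.01, 2.4 and 3.72 CPM in KO, from 1.67 ± 0.298 CPM in WT and 1.26 ± 0.0855 CPM in KO (SD, n = 3) at 6 h. Its interaction was -3.20 ± 0.26 (limma, adjusted p = 9.63e-07). EVX1 has an antisense partner, EVX1-AS, at 10.2 CPM in WT and 0.825 CPM in KO at 48 h, and whether the counting used strand was not given in the sources used here.

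Other induced genes gave smaller values. EOMES, the T-box factor shared by mesoderm and endoderm, rose to 731 ± 14.9 CPM in WT and 503 ± 26.1 CPM in KO (SD, n = 3). Its interaction of -0.43 ± 0.11 was called (limma, adjusted p = 0.0175), but not without KO 48 h replicate 2 (adjusted p = 0.0565) nor with all 24 libraries in 1 fit (0.21). MIXL1, a homeobox factor induced in the same cells, went from 1.27 to 768 CPM in WT and from 1.13 to 533 CPM in KO, with an interaction of -0.34 ± 0.15 that was not called (limma, adjusted p = 0.141). SOX17 and GATA4, factors of endoderm and of cardiac mesoderm, were not called either, at 0.37 ± 0.24 and -0.47 ± 0.31 (limma, adjusted p = 0.357 and 0.367). These 3 values do not show that the genotypes acted alike.

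Genes of presomitic and paraxial mesoderm showed some of the lowest interactions. Of 15 tested, 6 were lower in KO (MSGN1, CDX1, CDX2, FOXC1, HES7 and TBX6) and 1 was higher (LFNG), and the median was -0.47. Without WT 48 h replicate 3, 7 were lower and 4 higher. MSGN1, a bHLH factor of presomitic mesoderm, had at most 1 read per group at 6 h, and at 48 h stood at 4.39, 9.06 and 7.32 CPM in WT and at 0.452, 0.122 and 0.225 CPM in KO. Its interaction of -3.69 ± 0.35 (limma, adjusted p = 5e-06) rests on the 48 h libraries and, from so few reads at 6 h, depends on the added 0.25 CPM. It was not called by DESeq2 (adjusted p = 0.108) or by edgeR (0.942), which compare ratios to the 6 h level. TBX6, a T-box factor of the same cells, rose to 23.6 ± 4.86 CPM in WT and 7.99 ± 1.26 CPM in KO (SD, n = 3), with an interaction of -1.25 ± 0.29 (limma, adjusted p = 0.00736). It was -0.05 and not called on transcript counts (edgeR, adjusted p = 0.995).

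The caudal homeobox genes CDX1 and CDX2, targets of WNT signalling that pattern the posterior body, had the reverse time course. CDX1 stood at 18.8 ± 1.55 CPM in WT and 22.1 ± 0.618 CPM in KO at 6 h, and fell to 3.04, 4.98 and 4.77 CPM in WT at 48 h, against 0.345, 0.367 and 0.315 CPM in KO. The groups did not overlap at either hour, KO being above WT at 6 h and below it at 48 h, although only the later difference was called (limma, adjusted p = 0.454 and 1.78e-08). The interaction was -3.08 ± 0.21 (limma, adjusted p = 2.07e-07). CDX2 fell from 4.09 to 2.75 CPM in WT and from 4.74 to 0.273 CPM in KO, an interaction of -2.59 ± 0.39 (limma, adjusted p = 0.000297).

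Among 22 genes of cardiac and lateral plate mesoderm, 6 had a lower interaction (MESP1, APLNR, APLN, FOXF1, TBX3 and MYL7) and 3 a higher one (KDR, TEK and ISL1). ISL1 was low, at under 1 CPM in all 12 libraries, and its interaction of 1.24 ± 0.34 (limma, adjusted p = 0.0198) was not called without KO 48 h replicate 1 (0.0522), KO 48 h replicate 3 (0.0568) or KO 6 h replicate 2 (0.0532). The median of the list was -0.23. APLNR, the receptor for apelin and Apela peptides on migrating mesoderm, was at 0.582 CPM in WT and 0.58 CPM in KO at 6 h. The 48 h libraries held 316, 505 and 310 CPM in WT, against 58.4, 41 and 53.2 CPM in KO. The groups at 48 h did not overlap, and the interaction was -2.84 ± 0.26 (limma, adjusted p = 3.41e-06). MESP1, a bHLH factor of cardiac progenitors, reached 2.32, 3.77 and 8.45 CPM in WT at 48 h and 0.106, 0.0407 and 0.0225 CPM in KO. With 1 and 2 reads per group at 6 h, its interaction of -3.85 ± 0.46 (limma, adjusted p = 3.94e-05; -3.38 without WT 48 h replicate 3) depends on the added 0.25 CPM, and edgeR did not call it (adjusted p = 0.218). KDR, a VEGF receptor of vascular progenitors, went the other way, from 57 to 355 CPM in KO and from 95.7 to 272 CPM in WT, an interaction of 1.17 ± 0.11 (limma, adjusted p = 5.4e-06; 1.23 and 0.0914 with edgeR on transcript counts).

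**Figure D2:**
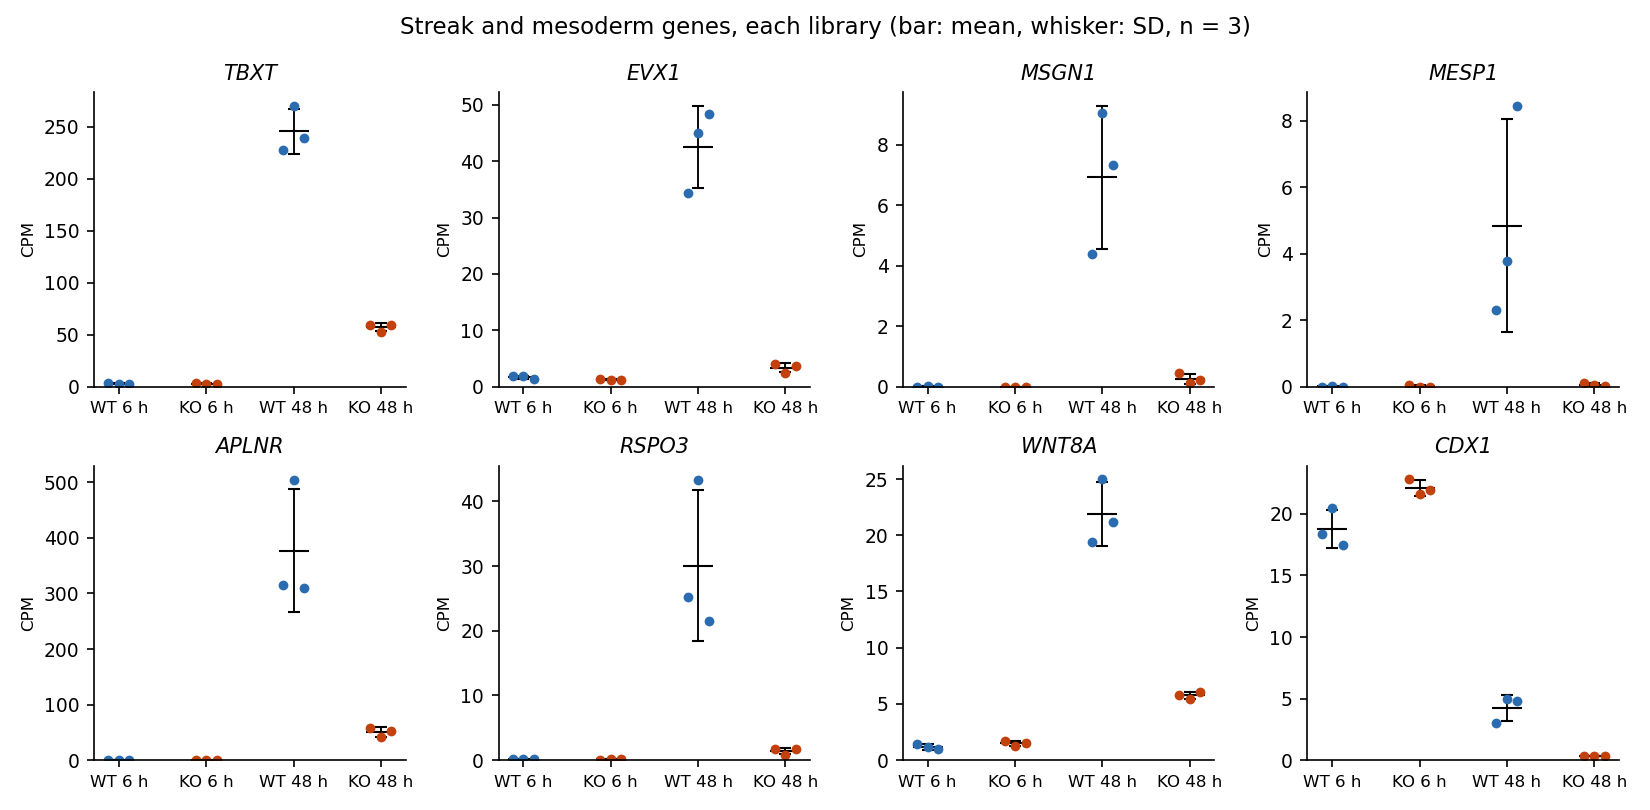
CPM in each of the 12 libraries for 8 streak and mesoderm genes (points: libraries; bar and whisker: mean and SD, n = 3). The genotypes lie close together at 6 h, and at 48 h all WT libraries lie above all KO libraries in each of the 8 genes, as in TBXT (228 to 270 against 52.5 to 59.6 CPM).

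Genes of WNT signalling were called in both directions. Among 17 genes that WNT signalling turns on, 7 had a lower interaction (LEF1, TCF7, NKD1, SP5, DKK1, APCDD1 and TNFRSF19) and 1 a higher one (FZD7), with a median of -0.50, while AXIN2 (0.14) was not called. LEF1, a transcription factor that carries the WNT signal to DNA, stood at 10.5, 13.5 and 10.3 CPM in WT at 48 h, against 5.61, 5.05 and 5.38 CPM in KO, and the 6 h means were 5.36 CPM in WT and 5.79 CPM in KO. Its interaction was -1.13 ± 0.18 (limma, adjusted p = 0.000511). NKD1, a feedback inhibitor of the pathway, rose in WT from 16.5 to 24.4 CPM and fell in KO from 15.4 to 10.2 CPM. DKK1, a secreted inhibitor, reached 48.6 ± 6.3 CPM in WT and 10.9 ± 0.413 CPM in KO (SD, n = 3). Its interaction of -1.55 ± 0.19 (limma, adjusted p = 4.82e-05) was not called by DESeq2 (0.128) or edgeR (0.13). At 6 h DKK1 was lower in KO too, at 0.145 against 0.324 CPM.

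Of 27 WNT ligands, receptors and secreted partners, 8 had a lower and 8 a higher interaction, and their median of 0.03 lay near that of all genes. The lower ones were the ligands WNT3, WNT3A, WNT5A, WNT5B and WNT8A, the receptors FZD1 and FZD2, and RSPO3, a secreted amplifier of WNT signalling. The higher ones were the receptors FZD4, FZD5, FZD7, FZD8 and ROR1 and the secreted antagonists SFRP1, SFRP2 and SFRP5. RSPO3 was near the floor at 6 h (0.125 CPM in WT and 0.136 CPM in KO) and at 48 h stood at 25.3, 43.4 and 21.5 CPM in WT and at 1.7, 0.856 and 1.69 CPM in KO. Its interaction was -4.16 ± 0.35 (limma, adjusted p = 1.48e-06). WNT8A rose to 21.9 ± 2.86 CPM in WT and 5.78 ± 0.302 CPM in KO (SD, n = 3), an interaction of -2.13 ± 0.2 (limma, adjusted p = 4.08e-06; -1.32 and 0.0699 with edgeR on transcript counts). FZD5 stood at 57 CPM in WT and 55.7 CPM in KO at 6 h, and reached 156 CPM in KO at 48 h against 70.4 CPM in WT, an interaction of 1.22 ± 0.09 (limma, adjusted p = 4.07e-07).

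Of 23 BMP pathway genes, 7 had a lower interaction (ID2, ID4, MSX1, MSX2, BMP2, BMPR1B and TBX3) and 2 a higher one (SMAD7 and the secreted BMP antagonist CHRD), with a median of -0.34. Without WT 48 h replicate 3, 11 were lower and 3 higher. ID4, an inhibitor of bHLH factors that BMP signalling turns on, stood at 48.1, 49.3 and 46.7 CPM in the WT libraries of 6 h and higher in KO, at 60.3, 63.4 and 61.5 CPM. It fell to 9.27, 8.88 and 8.89 CPM in WT and to 4.15, 4.54 and 4.33 CPM in KO, so KO lay above WT at 6 h and below it at 48 h with no overlap. The interaction was -1.35 ± 0.088 (limma, adjusted p = 1.1e-07). CHRD rose to 6.93 ± 0.402 CPM in KO and 2.07 ± 0.382 CPM in WT (SD, n = 3). ID1, another BMP target, had an interaction of 0.09 that was not called.

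Pluripotency genes moved in 1 direction: 23 of 29 had a higher interaction in KO and 0 a lower one, and the median was 0.78, against -0.01 for all genes. In WT 25 fell from 6 to 48 h and 2 rose. In KO 13 fell and 10 rose. KO was called above WT at 48 h in 21, and at 6 h above in 0 and below in 5. SOX2, a core factor that also marks neural fate, stood at 229, 240 and 235 CPM in WT at 6 h, against 216, 230 and 204 CPM in KO. It fell to 47.6, 39.8 and 41.5 CPM in WT and to 104, 138 and 116 CPM in KO, and the interaction was 1.61 ± 0.13 (limma, adjusted p = 1.02e-06). NANOG, a core factor whose level follows NODAL signalling, fell in WT from 77 ± 2.63 to 49.5 ± 7.57 CPM and rose in KO from 82 ± 1.37 to 118 ± 3.44 CPM (SD, n = 3). Its interaction was 1.19 ± 0.11 (limma, adjusted p = 2.69e-06), and no KO library overlapped WT at 48 h. POU5F1 (OCT4) fell in WT from 2026 to 1582 CPM, while in KO its 1857 CPM at 6 h and 2140 CPM at 48 h did not differ past the threshold, an interaction of 0.59 ± 0.13 (limma, adjusted p = 0.0056). On transcript counts edgeR called SOX2 and NANOG too, but not POU5F1 (0.60, adjusted p = 0.551).

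ZFP42 (REX1) and DPPA2, genes of undifferentiated cells, were called lower in KO than in WT at 6 h as well. ZFP42 stood at 148, 143 and 151 CPM in WT and at 30.9, 30.4 and 30.3 CPM in KO at 6 h, and at 102 CPM in WT and 194 CPM in KO at 48 h. KO was below WT at 6 h and above it at 48 h, with an interaction of 3.21 ± 0.082 (limma, adjusted p = 3.21e-12). The KO level of ZFP42 was 212 CPM at 0 h and 24.3 CPM at 3 h. DPPA2 rose in KO from 4.88 to 27.2 CPM and stood at 10.2 and 8.94 CPM in WT.

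In the NODAL pathway, 8 of 19 genes (42.1%) had a higher interaction (LEFTY1, LEFTY2, TDGF1, GDF3, SMAD3, SMAD7, INHBA and INHBE) and 2 (10.5%) a lower one (INHBB and FST). Over all genes the shares were 9.89% and 6.5%. LEFTY1, LEFTY2, TDGF1 and GDF3 were also counted in the pluripotency list and SMAD7 in the BMP list, so these calls are no separate result. LEFTY1, a secreted inhibitor that NODAL signalling turns on, was near the floor at 6 h (0.119 CPM in WT and 0.104 CPM in KO). After 48 h it reached 8.25, 6.27 and 7.55 CPM in WT, against 47.5, 49.8 and 50.9 CPM in KO. The KO mean was 6.72 times the WT mean and the interaction was 2.81 ± 0.18 (limma, adjusted p = 7.15e-08). GDF3, a NODAL partner ligand, rose in KO from 17.6 to 57.6 CPM and fell in WT from 29.8 to 22.2 CPM. NODAL itself had an interaction of -0.31 that was not called.

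Definitive endoderm genes leaned to KO: 5 of 12 had a higher interaction (FOXA1, FOXA2, CXCR4, KIT and AFP), 0 a lower one, and the median was 0.43. FOXA2, a forkhead factor of endoderm and anterior streak, had 1 to 6 reads per group at 6 h, and stood at 22.9, 19.5 and 17.4 CPM in WT at 48 h, against 41.8, 53.8 and 51.6 CPM in KO. Its interaction was 1.50 ± 0.19 (limma, adjusted p = 6.27e-05), and edgeR did not call it (0.0661). FOXA1 was called by neither edgeR nor DESeq2, and neither FOXA1 nor FOXA2 was called on transcript counts. CXCR4, a chemokine receptor used to sort endoderm, reached 10.6 ± 2.46 CPM in WT and 42.5 ± 4.67 CPM in KO (SD, n = 3), an interaction of 2.25 ± 0.21 (limma, adjusted p = 4.08e-06). HHEX (0.10), CER1 (-0.04) and GATA6 (-0.27) were not called. The summed level of the 12 genes was 2325 to 2737 CPM in the WT and 2731 to 3142 CPM in the KO libraries at 48 h, so the groups overlapped in the sum.

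**Figure D3:**
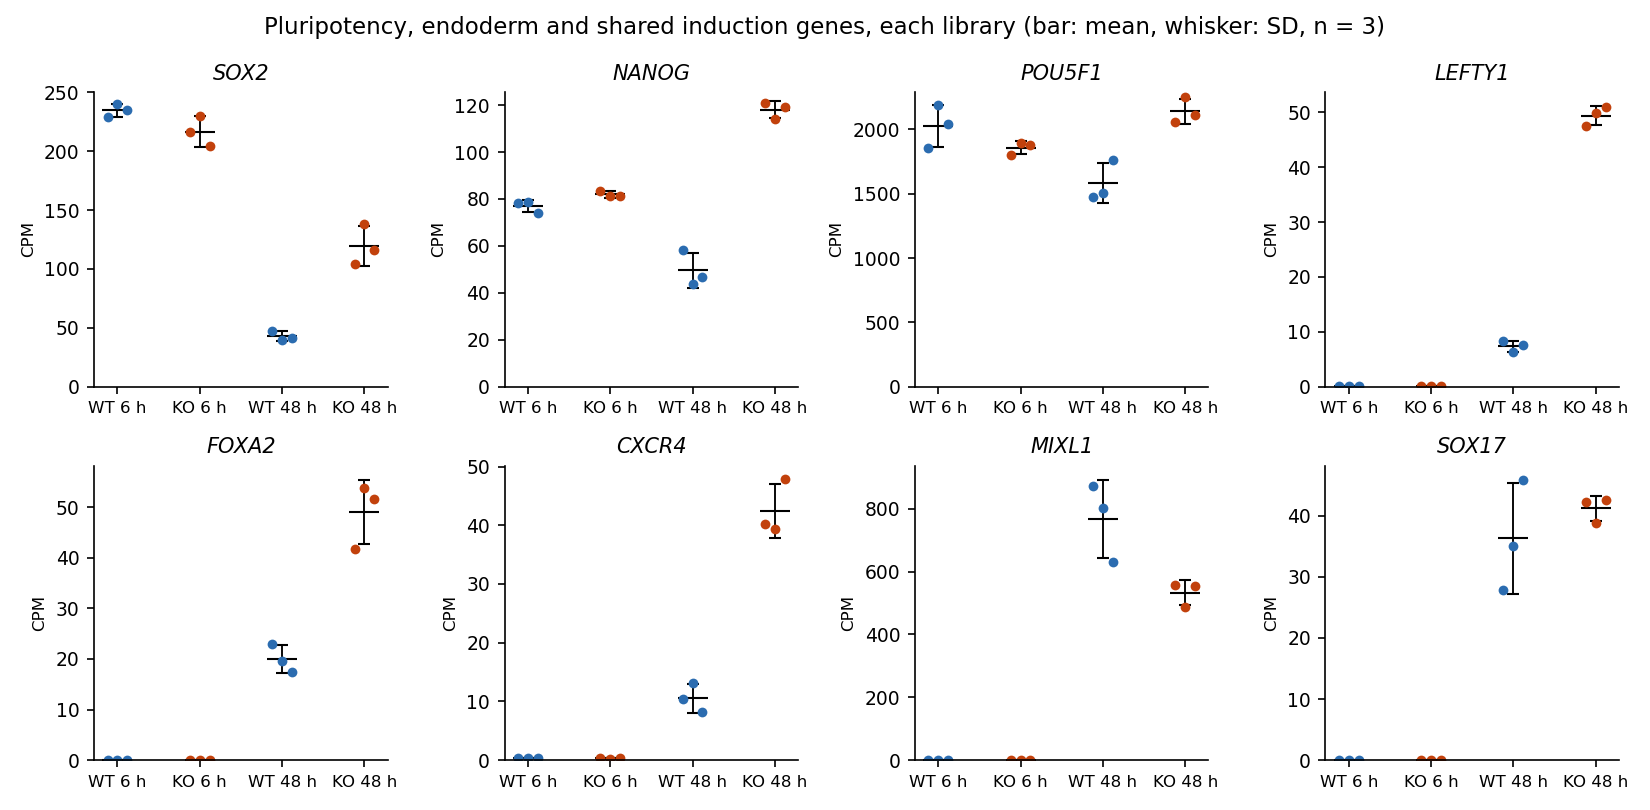
CPM in each of the 12 libraries for 8 genes of pluripotency, endoderm and shared induction (points: libraries; bar and whisker: mean and SD, n = 3). KO libraries lie above WT libraries at 48 h for SOX2, NANOG, POU5F1, LEFTY1, FOXA2 and CXCR4, below them for MIXL1, and overlap them for SOX17.

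Markers of other cell types that such cultures can hold moved less evenly. Over all genes tested, 9.89% had a higher and 6.5% a lower interaction. Of 14 amnion and trophoblast genes, 3 (21.4%) had a higher interaction (IGFBP3, TFAP2C and ISL1, the last resting on single libraries as above). A lower one was seen in 1 (7.14%, GABRP), near the share of all genes. The summed level of these genes was 981 to 1189 CPM in WT and 953 to 1019 CPM in KO at 48 h. Of 15 neuroectoderm genes, 4 (26.7%) were higher (POU3F1, SFRP2 and SIX3 among them) and 2 (13.3%) lower. Their sum was 1410 to 1777 CPM in WT and 1506 to 1570 CPM in KO at 48 h. The fibroblast list was lower in KO at 6 h, at 605 to 615 against 766 to 826 CPM, and overlapped at 48 h, at 946 to 1033 against 986 to 1045 CPM. The part of these other cell types in the results above was not tested. HAND1, a marker of amnion and lateral mesoderm, did not pass the filter on low values. Of 15 mesenchymal genes, 5 (33.3%) were lower (CDH2, SNAI1, SNAI2, ZEB2 and ITGA5) and 2 (13.3%) higher (VIM and TGFB2). ZEB2, a repressor of epithelial genes, stood at 6.08, 9.11 and 5.89 CPM in WT at 48 h, against 1.59, 0.998 and 1.06 CPM in KO, from 0.786 CPM in WT and 0.902 CPM in KO at 6 h, an interaction of -2.41 ± 0.31 (limma, adjusted p = 7.04e-05). Among 26 epithelial genes 4 (15.4%) were higher and 0 lower. Without WT 48 h replicate 3, 12 were higher and 2 lower, in a fit that called 14.6% of all genes higher and 12.9% lower.

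The largest higher interactions had another form: the genes were near silent in KO at 6 h and expressed in the other 3 groups. MEG3 (ENSG00000214548.10, chr14:100779410-100861031, plus strand) is a maternally expressed imprinted noncoding RNA. It stood at 107, 84.6 and 82.2 CPM in WT and at 0.0938, 0.0214 and 0.1 CPM in KO at 6 h. In the 48 h libraries it stood at 121, 84 and 95.2 CPM in WT and at 226, 240 and 240 CPM in KO. WT did not change past the threshold (adjusted p = 0.809), KO rose by 9.45, and the interaction of 9.49 ± 0.19 was the largest of all (limma, adjusted p = 3.67e-13). At 3 h MEG3 was also near silent in KO (0.0771, 0.0515 and 0.0864 CPM, against 146, 132 and 126 CPM in WT), but at 0 h it stood at 998, 890 and 898 CPM in KO and at 284, 794 and 1104 CPM in WT. The near-silent state of MEG3 thus belonged to the 6 KO libraries of 3 and 6 h and to none of the 6 KO libraries of 0 and 48 h.

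The following is the DNA just before the RefSeq start of MEG3, shown because MEG3 had the largest change (GRCh38.p14, chr14:100825858-100826107, plus strand, 250 bases, CG pairs in capitals).
MEG3: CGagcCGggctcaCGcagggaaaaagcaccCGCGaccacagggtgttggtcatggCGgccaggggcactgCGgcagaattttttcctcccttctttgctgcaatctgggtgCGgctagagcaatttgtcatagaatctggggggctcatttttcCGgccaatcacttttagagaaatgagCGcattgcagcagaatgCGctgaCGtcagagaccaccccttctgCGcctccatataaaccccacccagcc
This stretch lies inside the longer gene span of MEG3 given above, which starts further upstream than the RefSeq entry. It holds 13 CG pairs, the letters CG, which read the same on both strands. Of all 27305 RefSeq promoters, 46.4% held at least that many in the same window, and their median was 11. Over the 12995 promoters of genes tested the median was 20. No methylation was measured here.

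A class of such genes was then counted, with limits chosen after the values were seen: under 1 CPM in KO and at least 5 CPM in WT at 6 h, with a higher interaction. It held 26 genes. In libraries that the limits did not use, 23 of them were also under 1 CPM in KO at 3 h, and 23 stood at 5 CPM or more in KO at 0 h. In WT at 0 h 22 of the 26 stood at 5 CPM or more. The limits picked genes expressed in WT at 6 h, so expression in other groups follows in part from them. The same shares over all tested genes with at least 5 CPM in WT at 6 h were not counted. In KO at 48 h 22 stood at 5 CPM or more, which follows in part from the limits, since a higher interaction favours genes that rose in KO. Zinc finger genes of the ZNF family, mostly DNA-binding repressors, made up 11 of the 26 (42.3%), against 3.55% of the 10827 tested genes with at least 5 CPM in WT at 6 h. On chromosome 19, where many of them cluster, lay 11 of the 26 (42.3%, against 7.05%). ZNF253 stood at 32.1, 28.9 and 30.6 CPM in WT and at 0.187, 0.0642 and 0.0669 CPM in KO at 6 h, and at 31 ± 3.18 CPM in WT and 37.2 ± 1.48 CPM in KO (SD, n = 3) at 48 h. Its interaction was 6.80 ± 0.17 (limma, adjusted p = 1.98e-12). ZNF22 behaved alike, at 35 CPM in WT and 0.341 CPM in KO at 6 h and at 50.6 CPM in WT and 67.3 CPM in KO at 48 h (interaction 6.37 ± 0.12). ZNF558 and ZNF680 had 0 reads in all 3 KO libraries of 6 h, at least 716-fold and 314-fold lower than their WT means of 18 and 7.9 CPM (against 3 reads over the group).

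The same class held genes of other kinds. MT1G stood at 49.6, 51.3 and 50.8 CPM in WT and at 0.258, 0.407 and 0.234 CPM in KO at 6 h. By 48 h KO was the higher group, at 13.9, 13 and 13.4 CPM against 2.59, 2.27 and 3.39 CPM, and the interaction was 8.80 ± 0.21 (limma, adjusted p = 1.98e-12). CBR1, a carbonyl reductase, rose in KO from 0.0332 to 70.4 CPM. In WT it rose from 19 CPM to 116, 116 and 205 CPM, the last in WT 48 h replicate 3. Its interaction was 5.18 with all libraries and 5.44 without that library. FAR2P2 (a pseudogene, 5.96), LNCPRESS1 (5.71), ZNF844 (6.24), MGMT (4.68), which encodes a DNA repair enzyme, and CSRP1 (4.80), a LIM domain protein, were members as well. Metallothionein, zinc finger and pseudogene sequences resemble those of other genes, and how reads shared between copies were counted was not given in the sources used here, so their levels are uncertain.

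A mirror pattern gave the lowest interactions outside mesoderm. TAF9B (ENSG00000187325.4, chrX:78129748-78139706, minus strand) stood at 43.9, 42.6 and 45.7 CPM in WT and at 45.6, 49.8 and 46.6 CPM in KO at 6 h, where the groups overlapped. It then rose to 86, 96.1 and 77.8 CPM in WT at 48 h and fell to 3.08, 2.53 and 2.23 CPM in KO. The WT mean was 33.2 times the KO mean, and the interaction was -5.00 ± 0.13 (limma, adjusted p = 5.42e-12). LINC01036, a noncoding RNA, was high in KO at 6 h (25.3, 25.5 and 26.1 CPM against 2.52, 2.34 and 2.44 CPM in WT) and near the floor in KO at 48 h (0.0975 against 1.12 CPM), an interaction of -5.22 ± 0.21 (limma, adjusted p = 6.54e-10). MIR924HG, the host transcript of a microRNA, averaged 2.71 CPM in WT and 4.02 CPM in KO at 6 h. It then rose to 9.94, 8.86 and 9.25 CPM in WT and fell to 0.186, 0.0204 and 0.0901 CPM in KO at 48 h. Its interaction was -5.28 ± 0.24 (limma, adjusted p = 2.56e-09). YPEL3-DT (-4.83) rose in WT and fell in KO as well. The pseudogene LRRC37A11P (-3.55) fell in KO, and in WT its change of -0.21 was not called (limma, adjusted p = 0.301). Both stood higher in KO than in WT at 6 h.

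In these genes the low level was also found in libraries labelled WT. TAF9B at 0 h stood at 22.9, 0.849 and 1.2 CPM in WT replicates 1, 2 and 3 and at 2.07, 1.82 and 1.68 CPM in KO, and at 3 h at 39.9 to 41.4 CPM in WT and 30.4 to 43.2 CPM in KO. MIR924HG stood at 9.92, 0.025 and 0.109 CPM in the WT libraries of 0 h. Of the 10 lowest interactions, 5 (LINC01036, LRRC37A11P, MIR924HG, TAF9B and YPEL3-DT) were at least 4 times higher, a limit chosen after the values were seen, in WT 0 h replicate 1 than in both other WT 0 h libraries, as were 0.628% of all genes tested. The other 5 (CDX1, EVX1, LIX1, MSGN1 and RSPO3) were under 1 CPM in all WT libraries of 0 h. The low level of TAF9B and MIR924HG was thus shared by KO libraries of 0 and 48 h and WT 0 h replicates 2 and 3, and was absent from all libraries of 3 and 6 h. Genotype, hour and the origin of the cells cannot be told apart for these genes, since the labels give no culture or clone. The same limit holds for all other called genes, those of streak, mesoderm, WNT signalling and pluripotency included.

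The stretches before the RefSeq starts of the 2 lowest of these genes with a RefSeq entry are shown for comparison with MEG3 (GRCh38.p14, CG pairs in capitals). That of MIR924HG is chr18:39751996-39752245 on the minus strand, and that of TAF9B is chrX:78139707-78139900 on the minus strand, the 194 bases that lie outside its annotated exons.
MIR924HG: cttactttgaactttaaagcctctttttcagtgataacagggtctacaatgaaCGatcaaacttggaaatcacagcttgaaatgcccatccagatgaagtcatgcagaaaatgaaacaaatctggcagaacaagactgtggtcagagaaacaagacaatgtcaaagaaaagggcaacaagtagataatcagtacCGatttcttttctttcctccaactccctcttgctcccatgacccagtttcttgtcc
TAF9B: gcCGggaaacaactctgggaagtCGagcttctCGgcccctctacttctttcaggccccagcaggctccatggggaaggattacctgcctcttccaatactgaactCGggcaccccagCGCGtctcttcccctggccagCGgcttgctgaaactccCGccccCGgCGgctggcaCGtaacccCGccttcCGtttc
The stretch of MIR924HG lies inside its longer annotated gene span (chr18:39206924-39800318). The stretches hold 2 and 13 CG pairs. In the full window of 250 bases TAF9B has 18, and 36.5% of RefSeq promoters have at least that many, while 84.6% have at least the 2 of MIR924HG. Among the 13 of the 20 largest changes that RefSeq promoters matched, the number ran from 2 in MIR924HG and MSGN1 to 35 in YPEL3-DT.

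**Figure D4:**
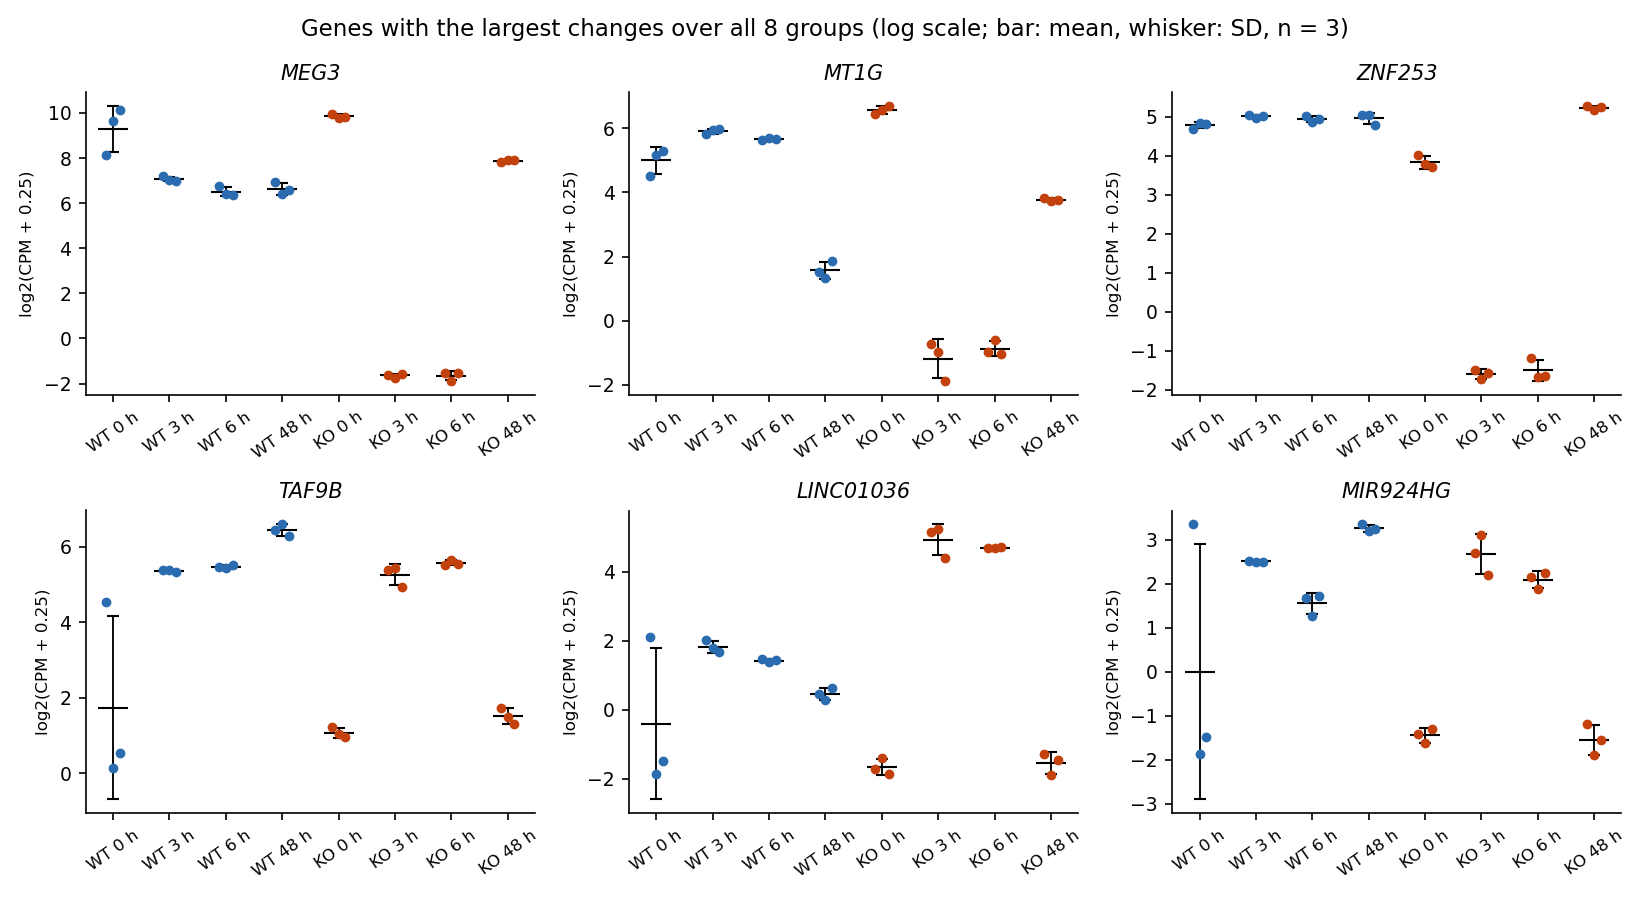
log2(CPM + 0.25) in all 24 libraries for 3 genes with the highest and 3 with the lowest interactions (points: libraries; bar and whisker: mean and SD on the log2 scale, n = 3). MEG3, MT1G and ZNF253 are near the bottom of the scale only in KO at 3 and 6 h, while TAF9B, LINC01036 and MIR924HG are low in KO at 0 and 48 h and in WT 0 h replicates 2 and 3.

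The direction of the 6 h difference was compared with that at 3 h and 0 h. Of the 378 called genes that differed between the genotypes at 6 h only, KO lay on the same side of WT at 3 h, in libraries the contrast did not use, in 348 (92.1%), and at 0 h in 142 (37.6%). Of the 425 that differed at both hours, the shares were 95.5% and 29.9%, and of the 302 that differed at neither hour they were 85.1% and 37.1%. Over all genes tested they were 62.3% and 48.4%. Only 6.35% of all genes differed at 6 h, so their shares are not like for like with those of genes picked for a 6 h difference. For the 2000 that differed at 48 h only, they were 68.3% and 42.5%. Since the labels give no derivative, hour and derivative cannot be told apart in KO. COL1A2, a fibrillar collagen chain, shows the early form at a high level: it stood at 25.9, 27.1 and 27.5 CPM in WT against 3.35, 3.17 and 3.28 CPM in KO at 6 h, and at 196 CPM in WT and 220 CPM in KO at 48 h, where the groups overlapped. Its interaction was 3.14 ± 0.085 (limma, adjusted p = 5.42e-12).

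Among 26 imprinted genes, 6 had a higher and 4 a lower interaction. The maternally expressed noncoding RNAs MEG3, MEG8 (2.53) and MEG9 (3.33), which lie together on chromosome 14, were all higher. NNAT, a paternally expressed gene on chromosome 20, had 5 reads in KO at 6 h (0.0404 CPM) against 4.64 CPM in WT, and reached 8.27 CPM in WT and 4.59 CPM in KO at 48 h, an interaction of 3.36 ± 0.19 (limma, adjusted p = 2.47e-08). NAP1L5, another paternally expressed gene, took the mirror course, from 11 to 0.774 CPM in KO and from 9.74 to 6.63 CPM in WT, an interaction of -2.88 ± 0.13 (limma, adjusted p = 2.56e-09). It too was high in WT 0 h replicate 1 (5.46 CPM) and low in replicates 2 and 3 (0.424 and 0.571 CPM). H19 (0.59) and IGF2 (0.42) were not called.

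The list of metallothioneins and partner genes gave 6 higher interactions of 12 (MT1E, MT1F, MT1G, MT1H, MT1X and SLC30A1), 0 lower, and a median of 0.60. That of MT1H (5.11) came from a fall in WT, from 9.88 CPM at 6 h to 0.128 CPM at 48 h. In KO MT1H was near the floor at both hours, at 0.014 and 0.082 CPM. Most of the list fell from 6 to 48 h, 11 of 12 in WT and 8 in KO. MT1F stood at 33.9 CPM in WT and 35.1 CPM in KO at 6 h, where the groups overlapped, and at 4.08 CPM in WT and 11.9 CPM in KO at 48 h. SLC30A1, a zinc exporter, fell from 97.7 to 16.4 CPM in WT and from 82.7 to 39.5 CPM in KO, an interaction of 1.56 ± 0.19 (limma, adjusted p = 6.05e-05). The list's summed level at 48 h overlapped, at 232 to 316 CPM in WT and 277 to 308 CPM in KO.

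The p53, hypoxia and stress lists leaned to KO, with smaller medians than the metallothionein list (0.60). Of 26 p53 targets, 13 had a higher interaction and 0 a lower one, and the median was 0.48. In WT 21 of them fell from 6 to 48 h, and in KO 18. EDA2R, a TNF receptor family member, fell from 32.2 to 9.88 CPM in WT and from 25.1 to 23.5 CPM in KO, an interaction of 1.62 ± 0.13 (limma, adjusted p = 8.55e-07; 1.18 and 0.111 with edgeR on transcript counts). CDKN1A (0.95), MDM2 (0.61) and BBC3 (1.00), the p53 targets that act on the cycle, on p53 itself and on cell death, were called too. Of 33 hypoxia and glycolysis genes, 14 were higher and 1 lower (BHLHE40), with a median of 0.28. At 6 h KO was called below WT in 10 of the 33 and above it in 1, and at 48 h above WT in 16 and below it in 2. The interaction of this list thus reflects both hours. HK1, a hexokinase of the first glycolytic step, reached 369, 374 and 317 CPM in WT at 48 h and 555, 563 and 567 CPM in KO, an interaction of 0.97 ± 0.078 (limma, adjusted p = 9.02e-07). On transcript counts the sign of HK1 was reversed, at -0.87, and it was not called (edgeR, adjusted p = 0.676). The same held for ID2 of the BMP list (0.75) and, uncalled in either table, for MIXL1 (0.22) and RBPMS (0.32). VEGFA and DDIT4 were higher by 0.97 and 1.76. In the stress list 6 of 28 were higher and 0 lower, and 12 and 1 without WT 48 h replicate 3.

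Lists of matrix, growth and housekeeping genes had calls in both directions, in several lists at shares near those of all genes tested (9.89% higher and 6.5% lower). Of 27 collagen and basement membrane genes, 9 were higher and 4 lower, and of 13 fibroblast markers 5 and 3. Of 25 contractile genes, 3 were higher (12%, CSRP1 and SYNPO2 among them) and 2 lower (8%, TAGLN and MYL9), close to those shares. Of 23 FGF and ERK response genes, 5 were higher (FGF2, FGFR2, SPRY1, ETV4 and ETV5) and 2 lower, and without WT 48 h replicate 3 there were 6 and 7. Of 34 cell cycle genes, 3 were higher and 7 lower. MCM5, a subunit of the replicative helicase, fell from 389 to 187 CPM in WT and from 390 to 115 CPM in KO, an interaction of -0.67 ± 0.091 (limma, adjusted p = 0.000119). Immediate early genes gave 5 higher and 2 lower of 27, cholesterol synthesis genes 2 and 1 of 23 (8.7% and 4.35%), and translation initiation factors 3 and 1 of 39 (7.69% and 2.56%, and 10 and 2 genes without WT 48 h replicate 3). 

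In 2 lists no gene was called with limma. The 13 mitochondrially encoded transcripts had 0 with an unadjusted p under 0.05 and 0 calls by edgeR or DESeq2. Of 78 cytosolic ribosomal protein genes, 2 had an unadjusted p under 0.05, edgeR called 0 and DESeq2 called 2, and the median was 0.05. Without WT 48 h replicate 3, 48 ribosomal protein genes were called higher and 2 lower, with a median of 0.23. Without that library the streak list gave 2 higher and 10 lower genes (1 and 8 with all 12 libraries), and the paraxial list 4 and 7 (1 and 6). The pluripotency list gave 25 and 0 (23 and 0), and the WNT target list 2 and 8 (1 and 7). Over all genes the shares in that fit were 14.6% higher and 12.9% lower.

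**Figure D5:**
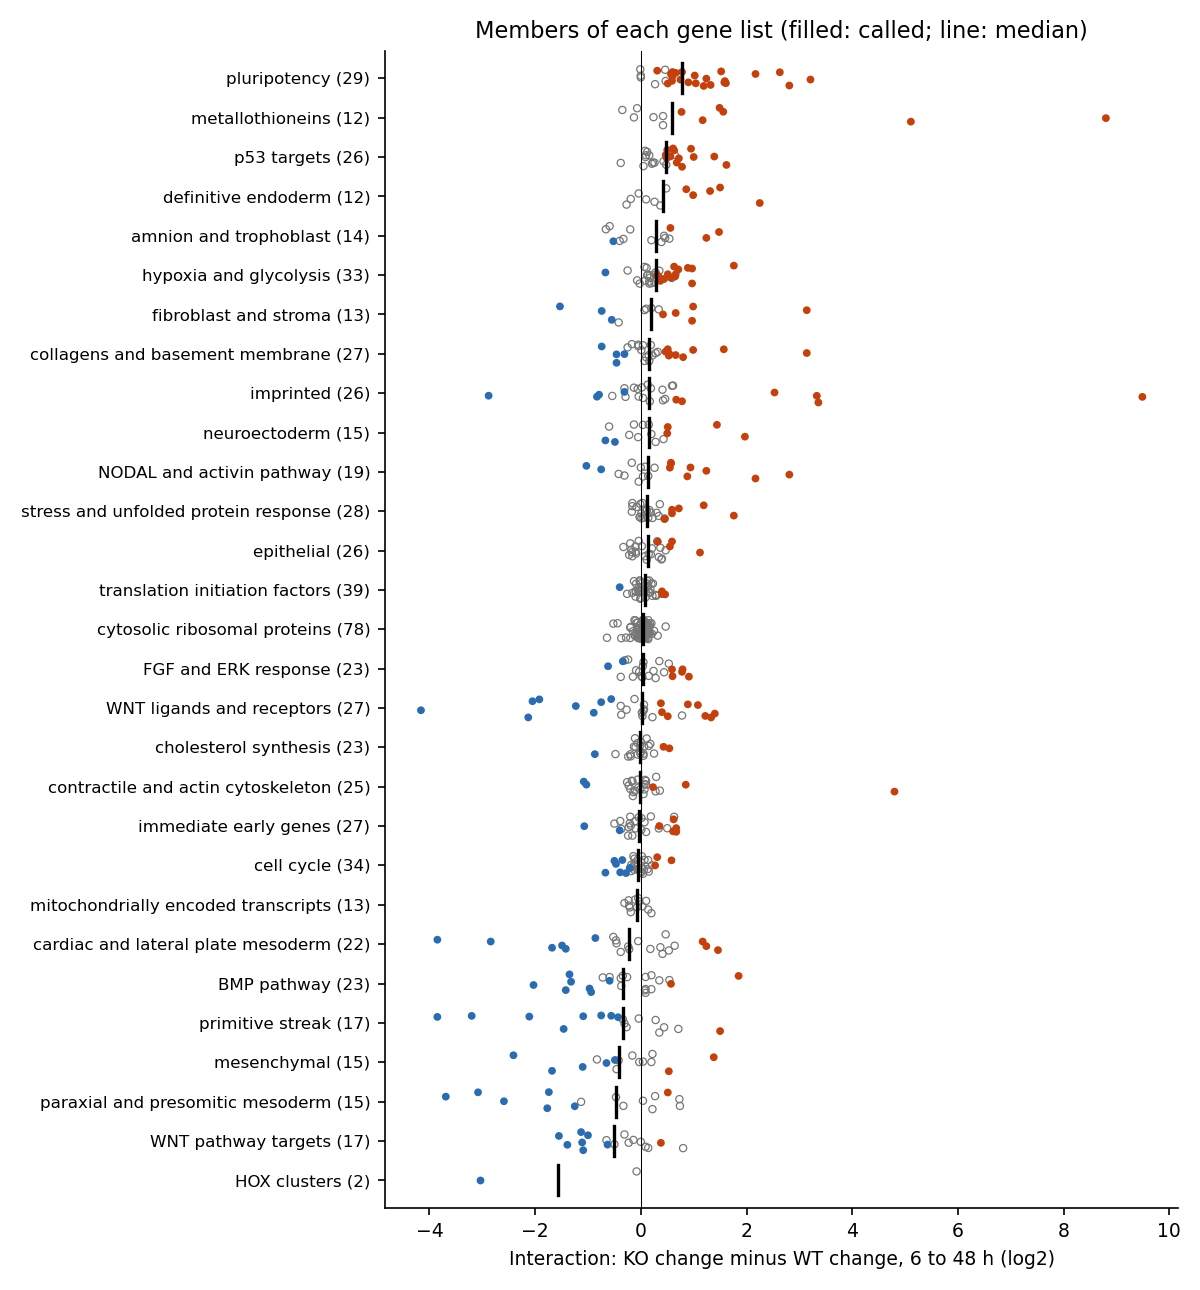
Interaction (log2) of every tested member of the 29 lists, ordered by median, with the number tested in brackets (filled points: called; open points: not called; black line: median). The pluripotency list lies highest, at a median of 0.78, and WNT targets, paraxial mesoderm and primitive streak lie at -0.50, -0.47 and -0.34.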

How the data were processed

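The series holds 24 mRNA libraries made with a stranded TruSeq kit, and the 12 of 6 and 48 h entered the contrast. The authors deposited CPM values per gene in 1 table and read counts per transcript in another. The build hg38 and DESeq2 are named per the submitters' processing notes. Neither aligner nor gene annotation is given in the sources used here. In the deposited CPM table the header was 1 cell short, which was undone, and 24 of 24 libraries then matched best their own column of transcript counts. The CPM steps gave whole reads back for 100% of values within 0.1 read. Symbols were found for 52338 of 57820 gene identifiers (90.5%) through GENCODE 29 and the name tables. No column of per-sample values went unused (0).

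Genes were kept by filterByExpr (at least 10 reads, total 15) and CPM values, divided by TMM factors, were tested as log2(value + 0.25) with limma-trend (8 residual degrees of freedom), Benjamini-Hochberg adjusted over all genes. A fold on this scale understates the change of low genes. Depth was 29896358 to 50451908 reads. Named genes were the 10 largest called changes in each direction (at least 1 on the log2 scale, 5 CPM in a group, called the same way with each library left out), up to 4 called members of each list by adjusted p, and 16 markers. The members and lists were chosen with earlier results of these data known, and genes named beyond this rule were chosen after their values were seen. The main fit did not treat libraries as paired by replicate number. Same-numbered deviations from the group means correlated at -0.198 to 0.199, and differently numbered ones at -0.259 to 0.302. With 3 libraries per group these values cannot settle whether the libraries were paired. Alternatives were other scalings, filters and pseudocounts, array weights, edgeR, DESeq2, all 24 libraries in 1 fit, transcript counts summed per gene, a replicate block and each library left out. The fitting code was tested on simulated data. Results for some genes are not reported here. Promoter windows are from RefSeq (GRCh38.p14), and 13 of the 20 largest changes matched. Tools were R 4.3.3, limma 3.58.1, edgeR 4.0.16, DESeq2 1.42.0, Python 3.11, pandas 2.3.3, numpy 2.4.6 and matplotlib 3.10.9.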

Additional observations from a re-analysis of the deposited data

Results flagged for a closer look

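Each called gene is by construction a difference between the genotypes' changes from 6 to 48 h, tested as an interaction with limma, so the 1874 higher and 1231 lower genes and the 20 largest among them are listed here for that reason. Those higher in KO were MEG3 (9.49), MT1G (8.80), ZNF253 (6.80), ZNF22 (6.37), ZNF844 (6.24), FAR2P2 (5.96), LNCPRESS1 (5.71), ZNF558 (5.57), ZNF680 (5.51) and CBR1 (5.18), all log2 differences of changes. All 10 were under 1 CPM in KO at 6 h. Those lower in KO were MIR924HG (-5.28), LINC01036 (-5.22), TAF9B (-5.00), YPEL3-DT (-4.83), RSPO3 (-4.16), MSGN1 (-3.69), LRRC37A11P (-3.55), EVX1 (-3.20), CDX1 (-3.08) and LIX1 (-3.02). For ZNF558 and ZNF680, with 0 reads in KO at 6 h, and for FAR2P2 (1 read) and MSGN1 (at most 1 read per group at 6 h) the value depends on the added 0.25 CPM and is no bound.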

How the results depend on the processing

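The 1874 higher and 1231 lower calls stayed within 1.5 times under other scalings, pseudocounts and filters, with edgeR (1823 and 1146), with DESeq2 (1844 and 1266) and with the replicate block (1759 and 1116, where all 117 called named genes kept their call), and the median of all genes stayed between -0.03 and 0.0. With all 24 libraries in 1 fit the calls were 1066 higher and 575 lower, and the classes differing at 48 h only, 6 h only, both hours and neither held 1093, 204, 148 and 196 genes. Transcript counts summed per gene with edgeR, which hold 22.08 to 26.36% as many reads, gave 528 and 184 calls and classes of 471, 108, 78 and 55. Array weights gave 2234 lower calls and classes of 756, 874 and 507 for 6 h only, both and neither, and a filter of 5 CPM left 192 in the last. The cause was not tested. Leaving out 1 library gave 1550 to 2811 higher and 925 to 2470 lower calls, and classes of 1516 to 2703, 234 to 980, 302 to 1026 and 236 to 572; the highest values came without WT 48 h replicate 3. Of calls, 53.2% were higher without that library, 55.1% on CPM as deposited, 60.4% as reported and 74.2% on transcript counts.

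On transcript counts, called genes that reversed included ID2 (0.75), EPCAM (-0.54), LAMA1 (-0.11), HK1 (-0.87) and CCNE2 (0.41), and uncalled ones MIXL1 (0.22), RBPMS (0.32) and RBPMS2 (-0.40). Of the 117 named calls, 8 were lost without at least 1 library (among them ISL1, CDH1, PMVK, MCL1, CCN1, PABPC1 and EOMES), 23 with all 24 libraries in 1 fit, and edgeR on recovered reads lost 7 (MSGN1, MESP1, FOXA2, FOXA1, SIX3, DKK1 and FOXF1). On transcript counts 97 of the 117 were tested, and 46 of these were not called, 6 of them with the sign reversed. Genes with few reads at 6 h are limited by depth, since their interaction rests on the 48 h libraries and the added 0.25 CPM.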

Other observations

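The class of genes near silent in KO at 6 h also held genes with no shared list. OCIAD2, an OCIA domain protein, stood at 40.5 CPM in WT and 0.743 CPM in KO at 6 h, and 48 h brought 52.3 CPM in WT and 21.5 CPM in KO. ALPK3, a kinase of heart muscle, stood at 13.4 CPM in WT and 0.616 CPM in KO at 6 h, and reached 24.5 CPM in WT and 19.2 CPM in KO by 48 h. TMLHE, the first enzyme of carnitine synthesis, stood at 5.85 CPM in WT and 0.052 CPM in KO at 6 h, with 27.6 CPM in WT and 23.7 CPM in KO by 48 h. ZNF562 and ZNF880, zinc finger genes on chromosome 19, rose in KO from 0.592 to 42.5 CPM and from 0.578 to 33.9 CPM. ZNF560 stayed low in KO at 48 h, at 0.458 CPM against 2.56 CPM in WT. These genes were named after their values were seen.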
